A study of Mus musculus with 12 samples.

Results

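Genes of histone H3 packaging and chromatin architecture were followed through 12 mouse tissue samples. The 6 genes were *Hist2h3b* (a histone H3 gene), *H2afx* (histone variant H2AX), the histone chaperones *Nasp* and *Npm1*, and the high mobility group genes *Hmga1* and *Hmga2*. All 6 symbols were found among the 770 genes of the nCounter mouse PanCancer pathways panel, which counts RNA molecules with color-coded hybridization probes and without amplification. The genes were chosen with earlier results of these same samples known, so their levels and differences are given as a description and carry no *p*-value of their own.

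The 5 *RBS* lesions came from *Rax-creERT2::Ctnnb1(ex3)Fl/+SmoM2Fl/+* embryos that received tamoxifen at E8.5 and were examined at E18.5. Tamoxifen switches on the Cre enzyme in cells that express *Rax*, a gene of the retinal precursors, and Cre then stabilizes β-catenin and turns on an active form of Smo. The lesions replaced most of the normal eye, so each sample is a mixture of lesion and remaining tissue. The 4 control eyes were *Ctnnb1(ex3)Fl/+SmoM2Fl/+*, the same floxed alleles without Cre, also at E18.5. Whether these controls were exposed to tamoxifen is not stated for the RNA samples. The 3 Shh-MBs were hindbrain tumors of 14-day-old *hGFAP-cre::SmoM2Fl/+* mice, in which Cre acts in neural precursors that express the human *GFAP* promoter and only the Smo allele is present. Each sample was 1 eye, lesion or tumor from its own animal. Tissue, age and genotype all differ between Shh-MB and the eyes and cannot be told apart.

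DNA is wrapped around histone proteins, and a dividing cell has to make a full new set while it copies its genome. The genes for the main form of H3 are therefore switched on in S phase, and their short messages lack a poly(A) tail, whereas *H3f3a*, which encodes the replacement form H3.3, is transcribed outside S phase as well. NASP shields newly made H3 and H4 until they are deposited, nucleophosmin (NPM1) is a chaperone of the nucleolus with a role in ribosome assembly, and H2AX is the variant that is phosphorylated next to broken DNA. HMGA1 and HMGA2 bind AT-rich DNA and bend it; both are abundant in embryonic tissue and *Hmga2* is largely silent in most tissues after birth.

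Depth was between 335392 and 716684 counts above background per sample, lowest in *RBS* lesion 1, and between 52 and 123 of the 770 genes sat at the lowest value of their sample. For *Ctnnb1*, *RBS* lesions averaged 7956.72 ± 395 (SD, *n* = 5) and control eyes 5688.2 ± 171 (SD, *n* = 4), and *Smo* overlapped between them; where the probes lie relative to the engineered exons is not given in the sources used here. Of the marker lists, 9 neuronal genes summed to 3362 to 4347 in *RBS* lesions, 1140 to 1280 in control eyes and 1324 to 2103 in Shh-MB. The 6 progenitor genes, led by *Ccnd1* and *Hes5*, summed to 4111 to 5756, 16749 to 22182 and 3370 to 3662 in the same order. Mesenchymal genes (9, led by *Col1a1* and *Col3a1*) summed to 20547 to 37933, 26260 to 59228 and 1564 to 2191. Blood and immune genes (7) summed to 178 to 235 in *RBS* lesions, 91.7 to 136 in control eyes, without overlap, and 117 to 236 in Shh-MB. The 8 surface epithelium genes summed to 1346 to 1850, 815 to 1215 and 192 to 327. The 3 measured genes of the granule lineage list (*Gli1*, *Mycn* and *Reln*) summed to 871 to 1073, 1388 to 1879 and 3590 to 4469. As control eyes had signal too, that sum is not specific to granule cells. None of the listed markers but *Il2rb*, an immune gene, was at the lowest value throughout a group. The progenitor sum adds linear signals, so its strongest gene, the cyclin gene *Ccnd1*, weighs most. Its genes differed unequally between *RBS* lesions and control eyes. The log2 differences were -2.91 for *Ccnd1*, -2.89 for *Fgf15*, -0.89 for *Hes5*, -0.73 for *Hes1* and -0.22 for *Notch1*. *Rax* and *Pax6*, which mark the retinal precursors, are not among the 770 genes. The part of these marker shifts in the results was not tested, and in bulk tissue fewer cells of a type and less RNA per cell cannot be told apart.

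To show what the H3 genes look like ahead of their start, the 120 bases before the RefSeq transcript start were read from the promoter table (RefSeq, GRCm38.p6). Capitals mark the letters CCAAT, or ATTGG on the other strand, and TATAA, the textbook elements of histone promoters. *Hist2h3b* (current symbol *H3c13*, gene at chr3:96268654-96269155) has its window at chr3:96268534-96268653 on the plus strand. *Hist1h3b* (*H3c2*) has it at chr13:23752225-23752344 on the plus strand, and *H3f3a* at chr1:180813606-180813725 on the minus strand.
Hist2h3b: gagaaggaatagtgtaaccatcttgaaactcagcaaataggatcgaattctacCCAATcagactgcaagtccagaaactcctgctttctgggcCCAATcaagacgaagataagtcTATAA
Hist1h3b: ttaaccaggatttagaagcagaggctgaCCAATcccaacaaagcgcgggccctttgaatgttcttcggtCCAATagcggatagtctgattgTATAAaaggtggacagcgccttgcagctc
H3f3a: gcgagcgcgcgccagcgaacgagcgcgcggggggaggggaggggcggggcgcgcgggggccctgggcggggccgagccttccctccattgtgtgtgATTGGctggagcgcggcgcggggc

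*Hist2h3b* and *Hist1h3b* carry 2 CCAAT matches followed by 1 TATAA match, with 41.7% and 49.2% G and C. The TATAA match of *Hist2h3b* ends at the last base before the annotated start, whereas that of *Hist1h3b* lies further upstream, so their positions differ. *Hist2h3c2*, the other H3 gene of this kind on the panel, has neither set of letters in its window and 75% G and C, so the matches are not shared by all 3. *H3f3a* has 1 CCAAT match, read on the other strand, no TATAA match and 80.8% G and C. Among 32851 promoter windows of the same length, searched on both strands, 21.3% hold CCAAT and 11.8% hold TATAA. The E2F-like letters TTTNGCGC, found in 0.581% of the windows, were in none of the 3 shown. Of the other genes of the set, *Nasp* has 1 CCAAT match and *Hmga1* and *Hmga2* have none of these letters in the window; *H2afx* and *Npm1* were not analysed here. A match is a description of the letters only.

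*Hist2h3b* had the strongest signal of the panel in 11 of the 12 samples. It read 183919, 225286, 205356 and 166408 in control eyes 1 to 4. In *RBS* lesions 1 to 5 it read 65784, 65745, 73556, 66425 and 55903, and in Shh-MB 1 to 3 it read 172124, 171984 and 187630. Every *RBS* lesion lay far below every other sample, while Shh-MB fell within the range of the control eyes. The group means were 195243 ± 25590 (SD, *n* = 4), 65482.5 ± 6285 (SD, *n* = 5) and 177246 ± 8993 (SD, *n* = 3). Control eyes were thus 2.98 times and Shh-MB 2.71 times the *RBS* mean, and even the nearest samples were 2.26 and 2.34 times apart. The log2 difference of *RBS* lesions was -1.57 (standard error 0.117) to control eyes and -1.44 (0.111) to Shh-MB, on the scale of log2(signal + 1) as are all log2 differences here. Shh-MB and control eyes differed by -0.13 (0.129) and overlapped, and the sign of this difference turned to 0.54 with median centring and 0.18 with the total lacking the 3 most abundant genes. In *RBS* lesions the summed neuronal markers given above were higher, and the summed progenitor markers lower, than in control eyes. The part of either in the low H3 signal was not tested.

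**Figure D1:**
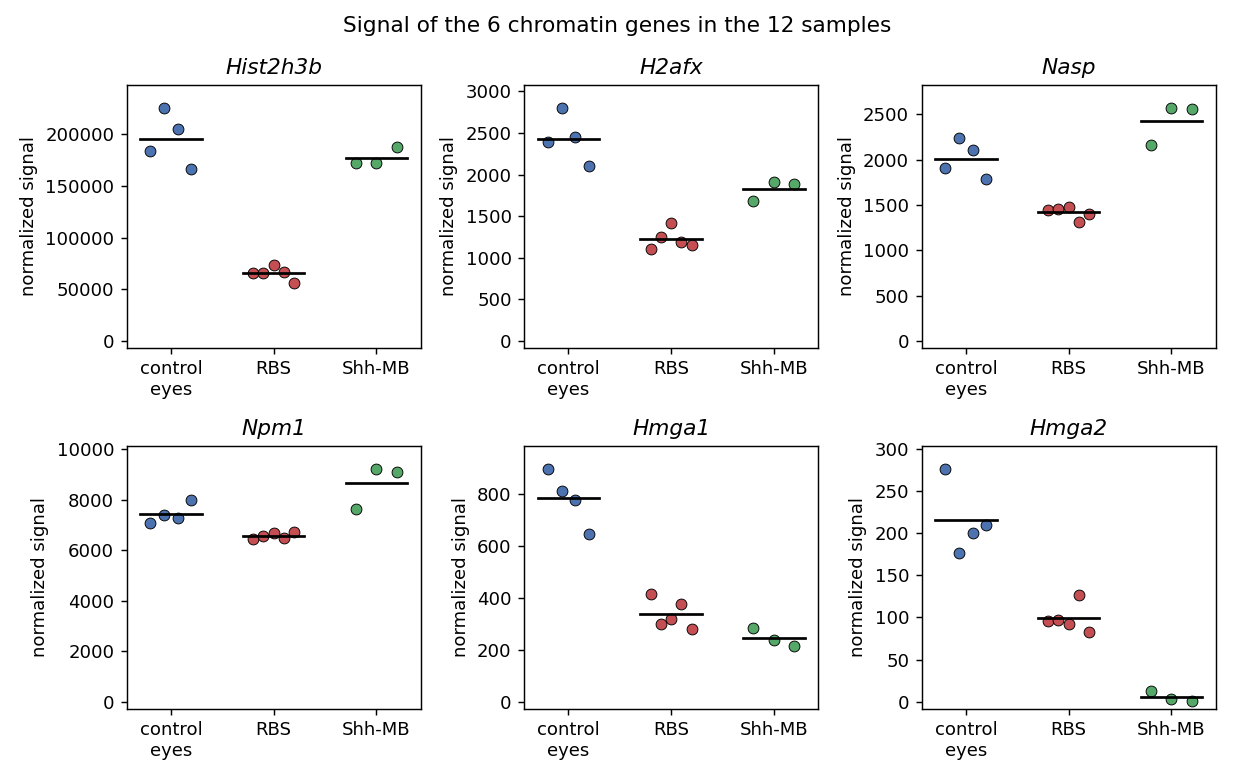
Normalized signal (linear axis) of the 6 genes in 4 control eyes, 5 *RBS* lesions and 3 Shh-MBs. Each point is 1 sample and each black line a group mean. *Hist2h3b*, *H2afx*, *Nasp* and *Npm1* were lowest in *RBS* lesions, whereas *Hmga1* and *Hmga2* were lowest in Shh-MB, with the *RBS* lesions in between and *Hmga1* overlapping between *RBS* lesions and Shh-MB.

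Because a share of the total does not depend on how a sample was scaled, *Hist2h3b* was also set against the summed signal of all 770 genes. It took 26.6%, 31.0%, 29.5% and 25.3% of the signal of control eyes 1 to 4. The shares were 11.95%, 12.7%, 13.6%, 12.3% and 10.6% in *RBS* lesions 1 to 5, and 28.4%, 28.7% and 31.3% in Shh-MB 1 to 3. No *RBS* lesion reached the share of any control eye or tumor. The mean shares were 28.1% ± 2.63 (SD, *n* = 4), 12.2% ± 1.11 (SD, *n* = 5) and 29.5% ± 1.58 (SD, *n* = 3). Without *Hist2h3b*, the remaining signal summed to 491614 to 508386 in control eyes, 450869 to 484595 in *RBS* lesions and 412084 to 433899 in Shh-MB, much closer together than the H3 signal. *Hist2h3b* ranked first of 770 everywhere but in *RBS* lesion 5, where it ranked 2.

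**Figure D2:**
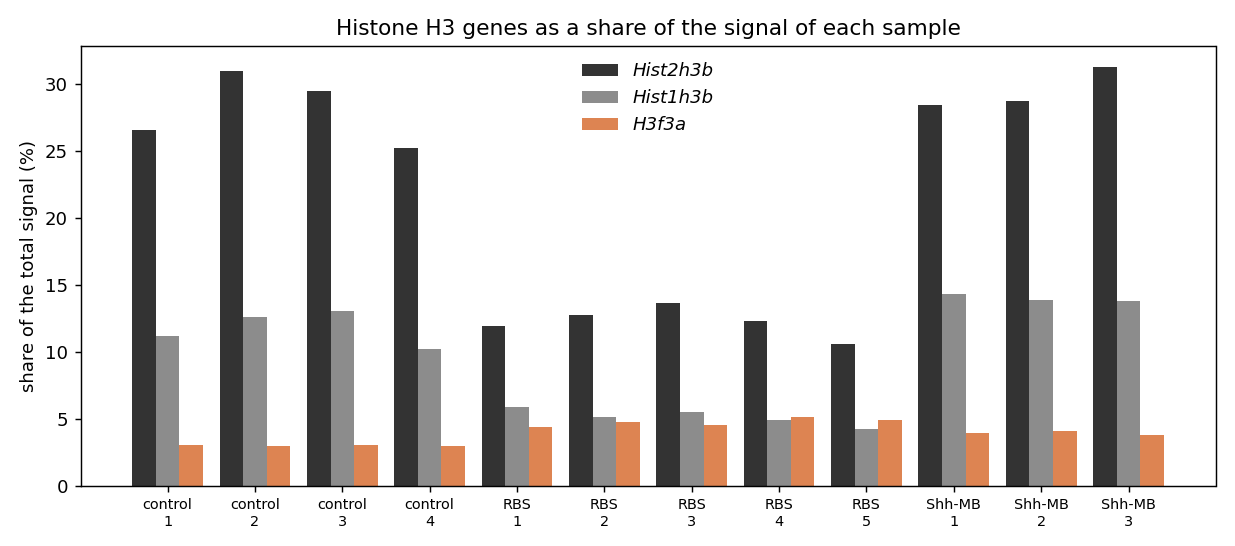
Share of the total signal of a sample (%, axis from 0) taken by *Hist2h3b*, *Hist1h3b* and *H3f3a* in each of the 12 samples. The *Hist2h3b* bars lie between 10.6% and 13.6% in *RBS* lesions and between 25.3% and 31.3% in all other samples. *H3f3a* takes its largest shares in *RBS* lesions, where *Hist2h3b* leaves more of the total to other genes. With the total lacking the 3 most abundant genes, the log2 difference of *H3f3a* in *RBS* lesions was 0.21 to control eyes and -0.29 to Shh-MB.

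The mouse gene table lists 12 protein-coding genes with an H3c symbol, 9 on chromosome 13 and 3 on chromosome 3, whose coding sequences are nearly identical, so the probe of 1 H3 gene may pick up messages of others. The genes outside the chosen set were tested with limma (two-sided, Benjamini-Hochberg adjustment over all 770 genes), and a gene is called where its adjusted *p* is under 0.05. *Hist1h3b* was 81738 ± 11675 in the 4 control eyes, 27578 ± 3771 in the 5 *RBS* lesions and 84050 ± 2208 (SD throughout) in the 3 Shh-MBs. In *RBS* lesions it fell by 1.57 on the log2 scale against control eyes (adjusted *p* = 2.82e-05, limma, standard error 0.138) and by 1.62 against Shh-MB (adjusted *p* = 2.23e-05, standard error 0.131). Because its probe may count messages of *Hist2h3b* as well, these tests are not independent support for the *Hist2h3b* differences. The pair of H3 genes together took 35.5% to 43.6% of the signal in control eyes, 14.9% to 19.1% in *RBS* lesions and 42.6% to 45.1% in Shh-MB. *Hist2h3c2*, a weak H3 gene of the chromosome 3 group, was 69.0 ± 15.6 (SD, *n* = 4), 37.9 ± 3.85 (SD, *n* = 5) and 55.8 ± 20.1 (SD, *n* = 3). It fell by 0.82 against control eyes (adjusted *p* = 0.00289, limma), and its difference of -0.49 to Shh-MB did not pass the test (adjusted *p* = 0.0787, limma). The latter depends on the scaling. It was -1.34 with median centring, -1.67 with quantile normalization and -0.87 with the total lacking the 3 most abundant genes.

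*H3f3a* (H3.3) did not follow. Its signal was 20836, 21432, 21317 and 19532 in control eyes 1 to 4, 24085, 24562, 24368, 27916 and 25690 in *RBS* lesions 1 to 5, and 23952, 24460 and 22626 in Shh-MB 1 to 3. All *RBS* values were above all control values and overlapped with Shh-MB. The log2 difference was 0.28 to control eyes (adjusted *p* = 0.0152, limma, standard error 0.0795) and 0.10 to Shh-MB (adjusted *p* = 0.405, limma). The first was no longer called with median centring of the samples (0.10), under quantile normalization (0.31) or after scaling to a total that leaves out the 3 most abundant genes (0.21), and the second turned to -0.75, -0.13 and -0.29. Relative to *Hist2h3b* of the same sample, which needs no scaling, *H3f3a* read 10.7% ± 0.996 in the 4 control eyes, 39.0% ± 5.01 in the 5 *RBS* lesions and 13.4% ± 1.17 (SD throughout) in the 3 Shh-MBs, without overlap between *RBS* lesions and the rest. *Hist1h3b* over *Hist2h3b* was 41.8% ± 1.72, 42.1% ± 4.09 and 47.5% ± 3.17 (SD) in the same order, and 4 of the 5 lesions lay at 40.1% to 40.5%, beside 49.4% in *RBS* lesion 1. These proportions compare probes only between groups, since signals of different probes are not levels per length.

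*H2afx* (*H2ax*, chromosome 9, 44334715 to 44336077) had signals of 2386, 2798, 2451 and 2099 in control eyes 1 to 4. It read 1109.92, 1248, 1422, 1195 and 1155 in *RBS* lesions 1 to 5 and 1687, 1910.49 and 1883 in Shh-MB 1 to 3. The 3 groups did not overlap at all, with control eyes highest, Shh-MB between and *RBS* lesions lowest. The log2 difference of *RBS* lesions was -0.99 (standard error 0.111) to control eyes and -0.58 (0.112) to Shh-MB. That of Shh-MB to control eyes was -0.41 (0.125), and it turned to 0.26 with median centring and was called under none of the 3 other scalings, while that of *RBS* lesions to Shh-MB became -1.42 with median centring and -0.97 with the total lacking the 3 most abundant genes. Against *Hist2h3b* of the same sample, *H2afx* was 1.25% ± 0.0432 (SD, *n* = 4) in control eyes, 1.88% ± 0.143 (SD, *n* = 5) among *RBS* lesions and 1.03% ± 0.0698 (SD, *n* = 3) among the tumors, again without overlap. The variant was thus lower in *RBS* lesions by less than the S phase H3 signal was.

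On the deposited scale, the chaperones had the smallest differences of the set between *RBS* lesions and control eyes. *Nasp* (chromosome 4) read 1904, 2234, 2108 and 1784 in control eyes 1 to 4, 1446, 1451, 1475, 1316 and 1398 in *RBS* lesions 1 to 5, and 2164, 2567 and 2553 in Shh-MB 1 to 3. *RBS* lesions were below all other samples, and Shh-MB and control eyes overlapped. The *RBS* difference was -0.50 (standard error 0.0910) to control eyes and -0.77 (0.0999) to Shh-MB, and Shh-MB minus control eyes was 0.28 (0.123). With median centring the values that involve Shh-MB grew to -1.62 and 0.94, and with the total lacking the 3 most abundant genes to -1.16 and 0.59; the latter difference was called under both and not as deposited. Per *Hist2h3b* signal, *Nasp* was 1.03% ± 0.0330 in the 4 control eyes, 2.18% ± 0.208 in the 5 *RBS* lesions and 1.37% ± 0.118 (SD throughout) in the 3 Shh-MBs, with no overlap among the 3 groups. The H3 chaperone was thus lower in *RBS* lesions by far less than the H3 gene that it serves.

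*Npm1* (chromosome 11) had the smallest difference of the 6 genes between *RBS* lesions and control eyes on that scale. It read 7096, 7379, 7274 and 7992 in control eyes 1 to 4, 6442, 6546, 6692, 6495 and 6724 in *RBS* lesions 1 to 5, and 7619, 9217 and 9103 in Shh-MB 1 to 3. *RBS* lesions were again below all others, but the nearest control eye was only 1.06 times the highest lesion. The coefficient of variation among *RBS* lesions was 1.87%, against 4.44% for *Nasp* and 16.7% for *Hmga2*, but among Shh-MBs it was 10.3%, above the 9.43% of *Nasp* and the 5.07% of *Hist2h3b*. *RBS* lesions differed by -0.18 (standard error 0.0721) from control eyes and by -0.39 (0.0978) from Shh-MB, and Shh-MB minus control eyes was 0.21 (0.108). The sizes that involve Shh-MB rest on the scaling. With median centring, quantile normalization and the total lacking the 3 most abundant genes, *RBS* lesions differed from Shh-MB by -1.24, -0.76 and -0.78, and Shh-MB minus control eyes was 0.88, 0.88 and 0.53, called under each of these 3 but not as deposited. *Npm1* over *Nasp*, 1 chaperone against the other, was 374% ± 52.3 (SD, *n* = 4), 464.92% ± 21.0 (SD, *n* = 5) and 356% ± 3.49 (SD, *n* = 3) in control eyes, *RBS* lesions and Shh-MB, and control eye 4 reached the range of the lesions.

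The HMGA genes had a different order. *Hmga1* (chromosome 17) read 895, 810.236, 777 and 645 in control eyes 1 to 4, 412, 299, 319, 375 and 279 in *RBS* lesions 1 to 5, and 284, 238 and 214 in Shh-MB 1 to 3. Control eyes were above all other samples, and the highest tumor overlapped with the lowest lesion. The log2 difference of *RBS* lesions was -1.22 (standard error 0.145) to control eyes and 0.45 (0.163) to Shh-MB. The latter has no settled sign, since it was -0.39 with median centring, -0.08 with quantile normalization and 0.07 with the total lacking the 3 most abundant genes. Shh-MB minus control eyes was -1.67 (0.155) and stayed at -1.002 or lower under each of these scalings.

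*Hmga2* (chromosome 10) read 276, 177, 200.036 and 209 in control eyes 1 to 4, and 95.7, 96.4, 92.0, 127 and 82.8 in *RBS* lesions 1 to 5. In Shh-MB 1 to 3 it read 12.6, 3.35 and 1, the last being the lowest value that the scale has. The 3 groups did not overlap, and the tumors had next to no signal, with about 11.2 and 3.57 counts above background in Shh-MB 1 and 2 and none detected in Shh-MB 3. The lowest *RBS* lesion was 6.58 times and the lowest control eye 14.0 times the highest tumor. *RBS* lesions were below control eyes by 1.11 on the log2 scale (standard error 0.160), with control eyes at 2.18 times the *RBS* mean. The fitted differences of 4.33 to Shh-MB in *RBS* lesions, and of -5.44 between Shh-MB and control eyes, depend on the 1 that was added, and were 3.42 and -4.51 with 5 added. The summed mesenchymal markers were lowest in Shh-MB as well, without overlap with the eyes, and their part in the low *Hmga2* signal was not tested.

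The proportion of *Hmga2* to *Hmga1* was the same within the spread in both kinds of eye samples, at 27.7% ± 4.88 (SD, *n* = 4) in control eyes and, among the *RBS* lesions, 29.5% ± 4.07 (SD, *n* = 5). It was 4.44% and 1.40% in Shh-MB 1 and 2 and at most 0.468% in Shh-MB 3, where *Hmga2* is at the floor, while the lowest eye sample had 21.8%. Thus both HMGA genes were lower in *RBS* lesions to a similar degree, whereas *Hmga2* was lower in the tumors by far more than *Hmga1* was.

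**Figure D3:**
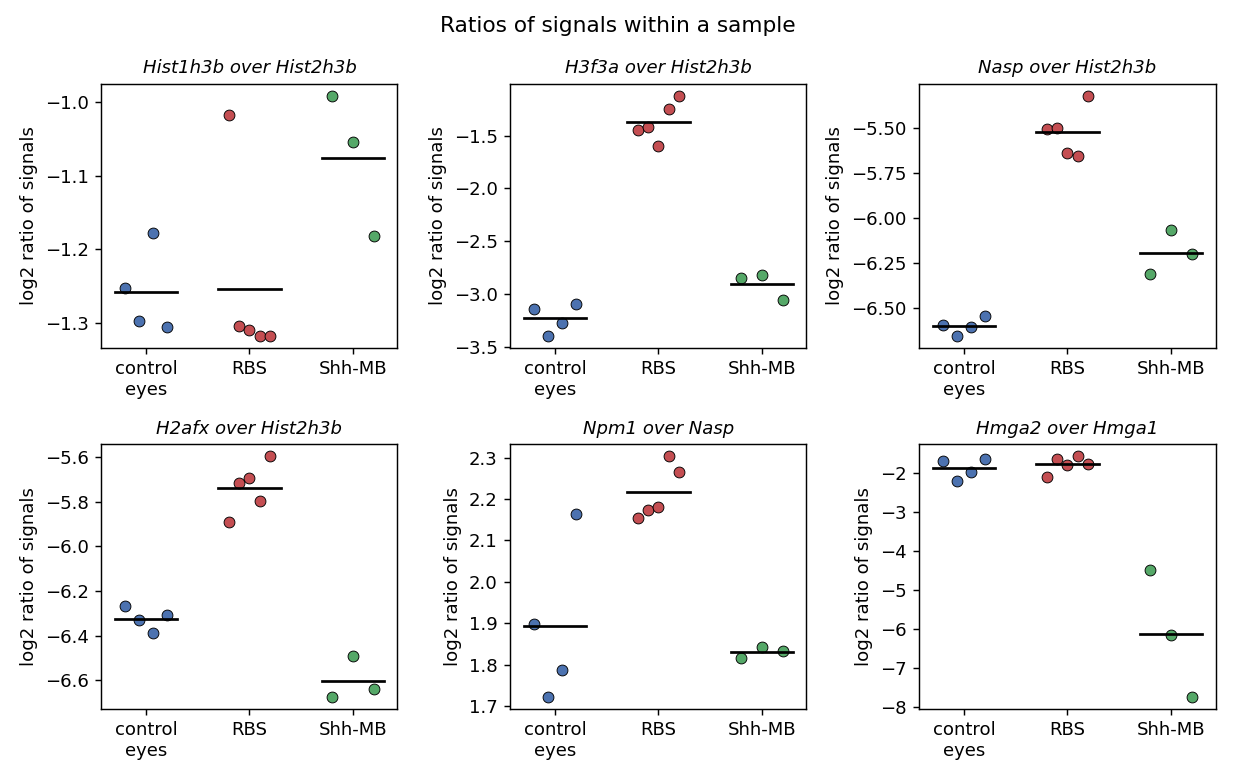
Log2 ratio of the signals of a pair of genes within each sample, for 6 pairs. Each point is 1 sample and each line a group mean, and the axes do not start at 0. *H3f3a*, *Nasp* and *H2afx* over *Hist2h3b* are highest in *RBS* lesions, *Hmga2* over *Hmga1* overlaps between the eye samples and is lowest in Shh-MB (the lowest point is an upper limit set by the floor), and *RBS* lesion 1 stands above the other lesions in *Hist1h3b* over *Hist2h3b*.

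Within groups the genes did not all vary together. Control eye 4 was lowest of its group in *Hist2h3b*, *H2afx*, *Nasp* and *Hmga1*, yet highest in *Npm1*, and control eye 2 was highest in *Hist2h3b*, *H2afx* and *Nasp* and lowest in *Hmga2*. *RBS* lesion 5 was lowest in *Hist2h3b*, *Hmga1* and *Hmga2* and highest in *Npm1*. Shh-MB 1 was lowest in *H2afx*, *Nasp* and *Npm1* and highest in both HMGA genes. Such differences inside a group stayed within 1.56 times from lowest to highest, apart from *Hmga2* in the tumors.

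Across the whole panel, the limma fit called 33% of the 770 genes higher and 18.2% lower for *RBS* lesions against control eyes, and 43.4% did not overlap between these groups. Of the 6 genes, 0 were called higher (also 0 at an unadjusted *p* under 0.05) and 5 lower (all but *Npm1*), and all 6 did not overlap. *Npm1* was called lower as well with median centring, quantile normalization, the total lacking the 3 most abundant genes, limma with trend and robust settings and the methods' *t* test with Benjamini-Hochberg adjustment; since the genes were selected on such values, nothing follows from these counts. Their median log2 difference was -1.05, beside 0.17 over all genes. Counted from the lowest difference of the 770, *Hist2h3b* held rank 23, *Hmga1* 48, *Hmga2* 54, *H2afx* 65, *Nasp* 129 and *Npm1* 223. All 6 differences stayed negative under the 3 other scalings, although quantile normalization took that of *Hist2h3b* to -0.15 and its call was lost, as it was against Shh-MB (-0.12), since that method gives each rank the same value in every sample and this gene ranks first in nearly all. Of all calls, 64.5% were higher in *RBS* lesions, and 50% with median centring.

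Against Shh-MB, 48.1% of all genes were called higher and 12.7% lower in *RBS* lesions, and 59.9% did not overlap. *Hmga1* and *Hmga2* were called higher, the other 4 genes lower, and 5 did not overlap. The median was -0.48, beside 0.53 over all genes. The split of all calls depended strongly on the scaling here, with 79.1% higher as deposited, 36.2% with median centring, 46.2% with quantile normalization and 62.3% with the total lacking the 3 most abundant genes, but *Hist2h3b*, *H2afx*, *Nasp* and *Npm1* stayed lower in *RBS* lesions under each of them. *Hmga1* was called in 3 of the 8 fits that left out 1 sample; the call was lost without Shh-MB 2 or 3 and without *RBS* lesion 1, 3 or 4.

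Between Shh-MB and control eyes, which share their samples with both comparisons above, 9.61% of all genes were called higher and 31.4% lower in Shh-MB, and 48.2% did not overlap. *H2afx*, *Hmga1* and *Hmga2* were called lower and 0 of the 6 genes higher, and the same 3 genes did not overlap. These calls depended on the scaling, with 3 of the 6 called higher and 2 lower with median centring, 1 and 2 with quantile normalization, and 2 and 2 with the total lacking the 3 most abundant genes. The call of *H2afx* held in only 1 of 7 fits that left out a sample, the one without control eye 4. The median of the set was -0.27, beside -0.22 over all genes. The share of calls that were higher moved from 23.4% to 69.1% with median centring, 59.9% with quantile normalization and 47.5% with the total lacking the 3 most abundant genes, and nothing is read from these calls on chosen genes. The 3 pairs of groups share samples and are not independent of each other.

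**Figure D4:**
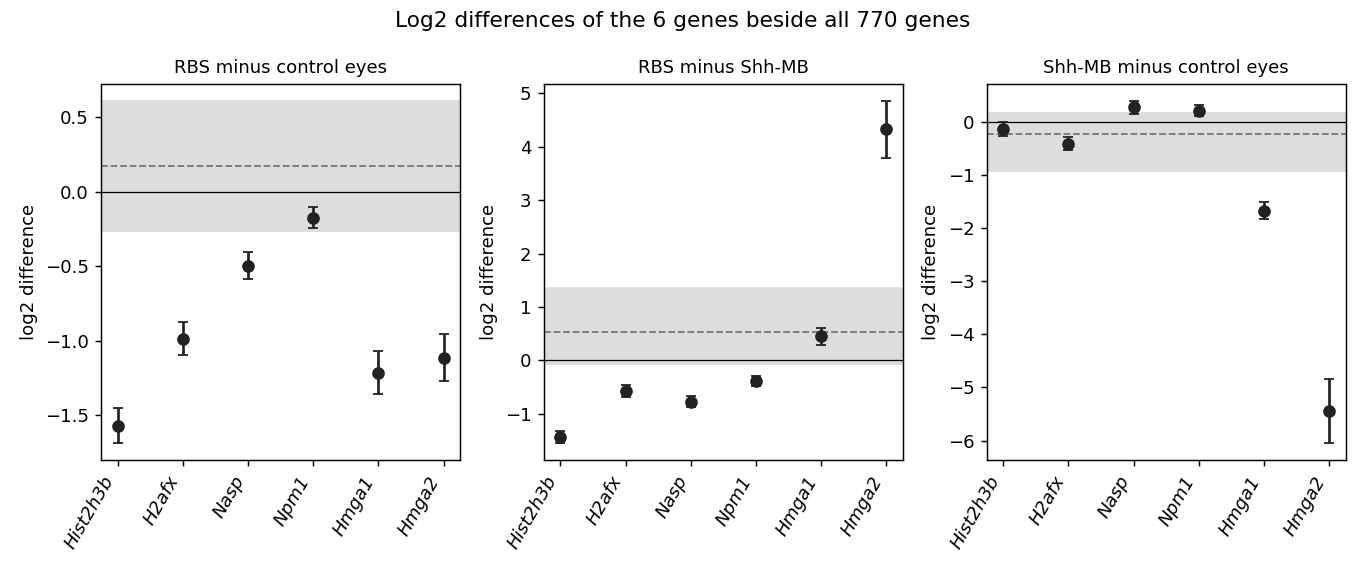
Log2 differences of the 6 genes (points, with the standard error of limma as bars) in the 3 comparisons. The grey band is the middle part of all 770 genes, from the first to the last quartile, and the dashed line their median; the axes differ between panels. In the comparison with control eyes all 6 genes lie below the median of all genes, and *Hmga2* stands far from the other 5 in both comparisons with Shh-MB.

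Genes that work with these 6 were taken from 4 lists written from general knowledge. The first held other histones and nucleosome-binding proteins, of which 6 were measured. In *RBS* lesions against control eyes, *Atrx* and *H3f3a* rose, *Hist1h3b* and *Hist2h3c2* fell, and *Npm2* and *Daxx* did not pass (median 0.11), on a panel with 33% of genes called higher and 18.2% lower. *Atrx*, a remodeler that places H3.3 together with DAXX, was 1457 ± 162 (SD, *n* = 5) against 962 ± 60.9 (SD, *n* = 4), a log2 difference of 0.59 (adjusted *p* = 0.00142, limma, standard error 0.106). It was called under each of the other scalings as well (0.40 to 0.52). Against Shh-MB, 1 gene rose (*Atrx*, 0.94) and 1 fell (*Hist1h3b*), beside 48.1% and 12.7% of the panel, but *Atrx* was at 0.09 with median centring. With that setting *Hist1h3b*, *Hist2h3c2* and *H3f3a* were at -2.46, -1.34 and -0.75, so the count of this list depends on the scaling.

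Of a list of enzymes that modify histone H3 and their partners, which does not hold every such gene of the panel, 25 genes were measured, of which 12 were higher, 3 lower and 10 not called in *RBS* lesions against control eyes (median 0.28, beside 0.17 over all genes). The panel as a whole also had more genes higher (33%) than lower (18.2%). *Setbp1*, whose product binds DNA and chromatin regulators, had the largest rise, to 422 ± 46.0 (SD, *n* = 5) from 179 ± 12.6 (SD, *n* = 4), a log2 difference of 1.23 (adjusted *p* = 2.42e-05, limma). The histone deacetylase *Hdac11* rose by 1.18 (adjusted *p* = 0.000249777, limma). *Ezh2*, the enzyme that methylates lysine on H3 in Polycomb repression, fell to 869.835 ± 71.0 (SD, *n* = 5) from 1343 ± 147 (SD, *n* = 4), by 0.62 (adjusted *p* = 0.000894, limma). The acetyltransferase *Kat2b* fell by 0.59 (adjusted *p* = 0.00247, limma). The H3 lysine methyltransferase *Suv39h2* is on the panel but not in the list, so it enters no count here; named after its values were seen, it fell by 0.93 (adjusted *p* = 0.00416, limma, standard error 0.202), more than *Ezh2* or *Kat2b*. The 4 genes named from the list kept direction and call under the other scalings, while the count of the list became 4 higher and 3 lower with median centring and 6 and 4 with quantile normalization.

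Against Shh-MB the same list had 14 higher, 0 lower (1 at an unadjusted *p* under 0.05 and 1 called by limma with trend and robust settings) and 11 not called (median 0.46, beside 0.53 over all genes), on a panel of which 48.1% was called higher and 12.7% lower. This direction came with the scaling, since median centring gave 2 higher and 12 lower and quantile normalization 6 and 8. *Ep300*, an acetyltransferase, averaged 631 ± 42.0 (SD, *n* = 5) in lesions against 277 ± 10.1 (SD, *n* = 3) in tumors, and rose by 1.18 (adjusted *p* = 2.13e-05, limma) and by 0.34 with median centring. *Hdac11* rose by 2.75 (adjusted *p* = 0.00548, limma, standard error 0.633), with 324 to 482 in *RBS* lesions and a wide 27.7 to 225 in Shh-MB. Its rise was smaller but still called with median centring (1.90), quantile normalization (1.86) and the total lacking the 3 most abundant genes (2.37). *Suv39h2*, outside the list, fell by 1.06 (adjusted *p* = 0.00676, limma, standard error 0.254), so the 0 lower holds for the listed genes and not for all H3 enzymes on the panel.

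Most of the measured replication fork and S phase genes fell. In *RBS* lesions against control eyes 17 of 23 genes fell, 1 rose and 5 were not called, and the median was -0.90, beside 0.17 over all genes, of which 18.2% were called lower and 33% higher. *E2f1*, a transcription factor of S phase entry, fell to 127 ± 30.6 (SD, *n* = 5) from 503 ± 66.1 (SD, *n* = 4), by 2.00 (adjusted *p* = 3.44e-05, limma, standard error 0.184). *Cdc6*, which loads the replicative helicase, fell to 11.6 ± 5.76 (SD, *n* = 5) from 42.8 ± 5.91 (SD, *n* = 4), by 1.94 (adjusted *p* = 0.00215, limma, standard error 0.372). *E2f5*, an E2F that binds repressive pocket proteins, rose by 0.37 (adjusted *p* = 0.00352, limma), but was no longer called with median centring (0.19) or quantile normalization (0.18). The counts under the other scalings were 17 to 21 lower and 0 or 1 higher. These falls came together with lower progenitor and higher neuronal marker sums in *RBS* lesions, whose part was not tested.

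Compared with Shh-MB, 16 of the 23 genes fell in *RBS* lesions, 2 rose and 5 were not called (median -1.03, beside 0.53), where 12.7% of the panel was called lower and 48.1% higher. *E2f1* fell by 1.74 (adjusted *p* = 0.000113657, limma). *Mcm5*, a subunit of the replicative helicase, fell to 40.5 ± 11.4 (SD, *n* = 5) from 134 ± 45.0 (SD, *n* = 3), by 1.69 (adjusted *p* = 0.000992, limma). The small DNA polymerase subunit *Pold4* and *E2f5* rose by 1.04 and 0.67 (adjusted *p* = 0.000984 and 0.000239601, limma); neither was called with median centring or quantile normalization, where *E2f5* was -0.18 and 0.08. The other scalings gave 21 lower and 0 to 2 higher. Between Shh-MB and control eyes, 2 genes of the list were higher, 3 lower and 18 not called (median 0.18, beside -0.22), on a panel with 9.61% higher and 31.4% lower, yet 17 were higher and 0 lower with median centring.

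H2AX kinases and proteins recruited to DNA breaks also fell more often than they rose in *RBS* lesions. Against control eyes 13 of 23 fell, 1 rose and 9 were not called (median -0.33, beside 0.17), with 18.2% of all genes lower and 33% higher. *Brip1*, a helicase that binds BRCA1, fell by 1.67 (adjusted *p* = 0.000470498, limma) from 39.4 ± 5.97 (SD, *n* = 4) to 12.2 ± 4.19 (SD, *n* = 5). *Brca1* fell by 1.43 (adjusted *p* = 6.97e-05, limma) from 295 ± 40.8 (SD, *n* = 4) to 109 ± 18.6 (SD, *n* = 5). *Lig4*, the ligase of end joining, rose by 0.69 (adjusted *p* = 0.00267, limma).

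Against Shh-MB, 11 of the 23 fell, 4 rose and 8 were not called (median -0.36, beside 0.53), with 12.7% of all genes lower and 48.1% higher. *Brip1* fell by 1.36 (adjusted *p* = 0.00611, limma) from 32.5 ± 11.1 (SD, *n* = 3) to 12.2 ± 4.19 (SD, *n* = 5). The end joining genes *Prkdc*, a kinase of H2AX, and *Xrcc4* rose by 1.16 and 0.87 (adjusted *p* = 0.000237502 and 0.00236, limma), but neither was called with median centring (0.31 and 0.03) or quantile normalization (0.33 and -0.05), and these scalings called 0 genes of the list higher and 20 and 19 lower. In Shh-MB against control eyes 2 were higher, 5 lower and 16 not called (median -0.10), beside 9.61% and 31.4% of the panel, and 11 were higher and 0 lower with median centring. The histone list had 0 higher, 1 lower and 5 not called in that comparison, and the H3 enzyme list 2, 6 and 17, whereas median centring gave 11 higher and 0 lower.

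**Figure D5:**
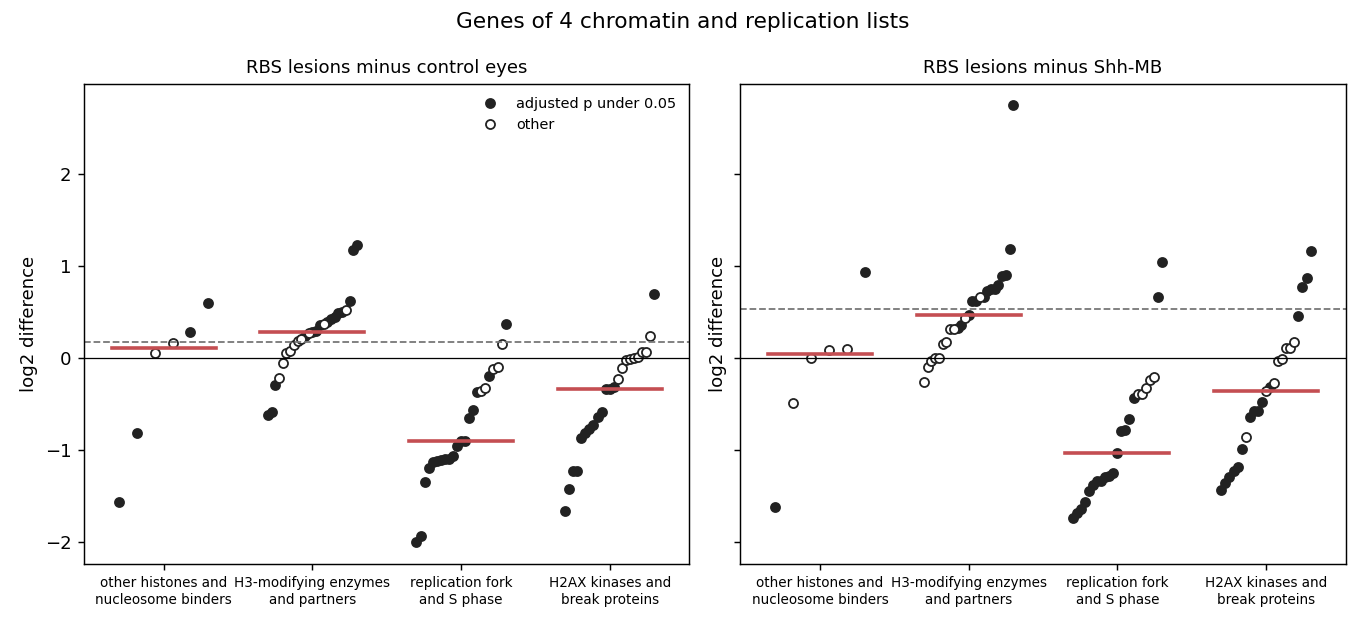
Log2 differences of every measured gene of the 4 lists in *RBS* lesions compared with control eyes (left) and Shh-MB (right). Filled points passed an adjusted p of 0.05 in limma, open points did not, red lines are list medians and the dashed line is the median of all 770 genes. Most replication genes lie below 0 in both panels, and the medians of the H3 enzyme list lie near the dashed lines.

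Finally, the genes whose pattern over the 12 samples was closest to each of the 6 were found by the root mean square difference of centred log2 values, among genes with a mean signal of at least 20 on the log scale. Closest to *Hist2h3b* were *Hist1h3b* (0.120), *Brca1* (0.126) and *Ttk* (0.157), a kinase of the mitotic checkpoint, beside a median of 1.05 over all such genes. *Ttk* read 225 ± 22.3 in the 4 control eyes, 81.1 ± 14.0 in the 5 *RBS* lesions and 254 ± 20.7 (SD throughout) in the 3 Shh-MBs. Closest to *H2afx* were *Mcm4* (0.149), *Ezh2* (0.188) and *Mdc1* (0.190), a reader of phosphorylated H2AX, with a median of 0.75. *Mdc1* read 292 ± 17.3 (SD, *n* = 4), 175 ± 19.2 (SD, *n* = 5) and 243 ± 9.13 (SD, *n* = 3) in the same order of groups.

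The genes nearest to *Nasp* were *Polr1b* (0.136), *Rpa3* (0.139) and *Skp2* (0.167), beside a median of 0.69. Those nearest to *Npm1* were *Tfdp1* (0.0676), *Cdc25a* (0.0953) and the ribosomal protein gene *Rpl19* (0.103), beside 0.57. For *Hmga1* they were *Prom1* (0.201), *Fbxw7* (0.2503) and *Ret* (0.274), beside 0.84. *Prom1* read 465 ± 50.6 in the 4 control eyes, 225 ± 24.0 in the 5 *RBS* lesions and 197 ± 30.3 (SD throughout) in the 3 Shh-MBs. Near *Hmga2* were *Col2a1* (0.613) and *Tshr* (0.653), beside 2.11, both with little signal in Shh-MB. *Col2a1*, a collagen gene of cartilage and the vitreous, read 741 ± 86.5 (SD, *n* = 4), 613 ± 44.5 (SD, *n* = 5) and 21.5 ± 4.90 (SD, *n* = 3). This likeness is a description over 12 samples that fall into 3 groups.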

How the data were processed

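The nCounter mouse PanCancer pathways panel was run on total RNA of 12 samples, each from an individual animal. The authors compiled and normalized the counts with nSolver and its Advanced Analysis module. The deposited signal is normalized and linear, not log-transformed. Its low values lie on even steps, with background already subtracted, a floor for undetected genes and 1 factor per sample. Depth was taken as total signal over the step between low values.

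Values were analysed as log2(signal + 1) without a filter. Each pair of groups was fitted by limma (version 3.58.1, R 4.3.3; two-sided, Benjamini-Hochberg over 770 genes, threshold 0.05). *p*-values measure the spread between animals only. The 6 genes and the lists were chosen with earlier results of these data known. In each list, the 2 largest rises and falls past the threshold were named for *RBS* comparisons, and the 3 genes most like each of the 6; some of these are not reported here. Alternatives were other scalings, a pseudocount of 5, a filter on low signal, the methods' *t* test, limma with other settings, the replicate number as a block and leaving out each sample. The fit was tested on simulated data. Promoter sequences came from RefSeq (GRCm38.p6), in which 760 panel symbols matched as current and 10 as older names.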

Additional observations from a re-analysis of the deposited data

Results flagged for a closer look

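In *RBS* lesion 1, *Hist1h3b* read 49.4% of *Hist2h3b*, whereas the other 4 lesions lay between 40.1% and 40.5%. The gap to the nearest lesion was 0.957 of the whole range of log2 ratios in the group, beyond Dixon's critical value of 0.71 for 5 samples. This lesion also had the lowest depth of the 12 samples (335392 counts above background), and its part in the ratio was not tested. It was the only 1 of 36 sets of values tested in this way that stood apart, and chance alone passes about 1 in 20.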

How the results depend on the processing

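Of 651 values recomputed under an alternative, 547 stayed within the spread between samples or, for counts, within 1.5 times. Scaling mattered most for the tumors, and for these the direction of a small difference is not settled. Genes with a few counts, such as *Hmga2* in Shh-MB, are limited by depth.

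With each sample set to its median, the log2 differences of *Hist2h3b*, *H2afx*, *Nasp* and *Npm1* in *RBS* lesions became -1.75, -1.17, -0.68 and -0.35 to control eyes, and -2.29, -1.42, -1.62 and -1.24 to Shh-MB. *Hmga1* turned to -0.39 and *Hmga2* fell to 3.48 in the latter. For Shh-MB against control eyes *Hist2h3b* turned to 0.54, *H2afx* turned to 0.26, and *Nasp*, *Npm1* and *Hmga1* were 0.94, 0.88 and -1.002, with 5 of the 6 genes called, 3 higher and 2 lower. List counts with this setting were 7 H3 enzymes for *RBS* lesions against control eyes, 5 histone genes against Shh-MB, and 4 histone, 17 replication and 11 DNA break genes for Shh-MB against control eyes.

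Quantile normalization gave *Hist2h3b* -0.15 to control eyes and -0.12 to Shh-MB, by its construction, and called neither. Against Shh-MB it gave *H2afx* -0.82, *Nasp* -0.95, *Npm1* -0.76, *Hmga1* -0.085, a turned sign, and *Hmga2* 3.31, and called 4 histone genes. For Shh-MB against control eyes it gave *Npm1* 0.88 and *Hmga1* -1.36 and called 15 replication genes. When the 3 most abundant genes were left out of the total used for scaling, *Npm1* was -0.25 to control eyes. *Hist2h3b*, *H2afx*, *Nasp*, *Npm1* and *Hmga1* were then -1.83, -0.97, -1.16, -0.78 and 0.066 to Shh-MB, with 4 histone genes called. For Shh-MB against control eyes the same 5 genes were 0.18 (from -0.13), -0.10, 0.59, 0.53 and -1.36, with 15 replication genes called. With 5 added in place of 1, *Hmga2* was 3.42 for *RBS* lesions against Shh-MB and -4.51 for Shh-MB against control eyes. As a share of a total without the other 2 most abundant genes, *Hist2h3b* took 34.6% in control eyes, 14.5% in *RBS* lesions and 37.5% in Shh-MB.

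The methods' *t* test with step-down Bonferroni adjustment, in place of limma, called 72 genes for *RBS* lesions against control eyes, 80 against Shh-MB and 36 for Shh-MB against control eyes, of which 2, 1 and 0 were of the 6. In the histone, H3 enzyme, replication and DNA break lists it called 1, 1, 7 and 2 genes, then 1, 3, 5 and 1, then 0, 0, 0 and 1. With Benjamini-Hochberg adjustment it called 3 of the 6 against Shh-MB. Limma with trend and robust settings called 2 histone genes and 14 H3 enzymes for Shh-MB against control eyes.

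The replicate numbers do not pair the samples, since deviations of same-numbered samples correlated by -0.148 to 0.188, -0.0173 to 0.0844 and -0.0811 to -0.0169 in the 3 comparisons. With the replicate number as a block, 10, 44 and 68 genes were called, 0 of them among the 6 and 0 in each of the 4 lists, where limma without the block called 5, 6 and 3 of the 6. At an unadjusted *p* under 0.05 the blocked fit had 4, 3 and 2 of the 6, all lower apart from 2 against Shh-MB.

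Leaving out 1 sample at a time, the genes called numbered 350 to 392, 423 to 478 and 250 to 313, and of the 6 genes 5, 5 to 6 and 2 to 3 were called. For Shh-MB against control eyes the histone list had 0 to 1 calls, with 0 without control eye 1, 2 or 4 or Shh-MB 1 or 2, and the replication list 2 to 6, with 2 without Shh-MB 2 and 3 without control eye 1 or Shh-MB 3. The log2 ratio of *Hmga2* to *Hmga1* in *RBS* lesions against control eyes ranged from -0.013, without control eye 2, to 0.18. Ranked by 3 group means in place of 12 samples, the 3 genes nearest to *Hist2h3b*, *H2afx*, *Nasp*, *Npm1*, *Hmga1* and *Hmga2* shared 1, 0, 1, 1, 1 and 1 gene with those named.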
